A study of Homo sapiens with 18 samples.

Results

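The genes described are those of the proteasome, the complex that degrades proteins tagged with ubiquitin, in a human tongue carcinoma line kept with and without glucose and with and without the neuropeptide CGRP. Members were all protein-coding genes whose symbol is PSMA, PSMB, PSMC, PSMD, PSME, PSMF or PSMG followed by a number, and pseudogenes were left out. There were 48 of them among 60683 gene IDs of the deposited count table. Of the 48, 46 had enough counts to be tested. The other two were PSMA8, a testis subunit with 1 count over all 18 libraries, and PSMB11, a thymus subunit with 12.

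The 20S core of the proteasome is a barrel of alpha rings (PSMA genes) around beta rings (PSMB genes). PSMB5, PSMB6 and PSMB7 carry its proteolytic sites. Interferon-gamma replaces them with PSMB8, PSMB9 and PSMB10, which form the immunoproteasome that shapes peptides for MHC class I molecules. The 19S cap recognises and unfolds substrates with ATPases (PSMC genes) and other base and lid subunits (PSMD genes). PSME1 and PSME2 form the PA28 activator, PSME3 and PSME4 encode other activators, PSMF1 an inhibitor of the core, and the PSMG genes chaperones that assemble it. When proteasomes are inhibited, cells raise these genes together through the transcription factor NFE2L1 (NRF1).

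RNA came from Cal27, an established line of oral squamous cell carcinoma, grown for 24 hours in 3 media. The media were DMEM rich in glucose, the same without glucose, and the glucose-rich one plus 2-deoxyglucose (2-DG, 5 mM), which cells take up like glucose but cannot carry through glycolysis. In each medium 3 cultures had 10 nM recombinant human CGRP, a peptide of sensory nerves, and 3 had control medium, which makes 6 groups. The labels call the 3 cultures of a group independent repetitions. The arms are read from the series' own key to its sample codes, while the protocol for growing the cells speaks only of different CM, an abbreviation it does not spell out. Both 2-DG groups also had high glucose, so no group combines 2-DG with deprivation.

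Libraries held 28.04M to 32.66M counts, and proteasome genes took 0.587% to 0.927% of them. Levels are in CPM (edgeR's counts scaled to library size, with the TMM correction for library composition), and changes are log2 fold changes ± SE. A gene rose or fell where its adjusted p in edgeR's quasi-likelihood test was under 0.05. Squamous markers were present, with KRT5 at 645 CPM or more in every library, and the 8 of them summed to 3473 to 3823 CPM in the 6 deprived libraries against 4563 to 5207 in the others, though some members went the other way. In bulk RNA, fewer cells of a kind and less RNA per cell cannot be told apart.

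The second library of the deprived CGRP group and the second of the 2-DG control group stood apart from their group mates on the second principal component, at 59.3 and 34.6. Proteasome genes were among those that set them apart. In the deprived CGRP library 41 of 46 members were above the mean of the other two libraries of its group, by a median log2 of 0.47, and in the 2-DG control library 42 of 46, by 0.35. Across members this excess ran against exon length, with Spearman's rho of -0.60 and -0.39 over 46 genes measured in the same libraries. Its part in the results was not tested. Counts of changed proteasome genes are therefore also given without these 2 libraries. Leaving them out lowers most members in the deprived CGRP and 2-DG control groups by construction. In comparisons that use these groups, the direction of changes in that fit is thus partly fixed by the choice.

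Per kilobase of exon, the high-glucose control held more RNA of some subunits of a ring than of others. PSMB7 stood at 248 CPM per kilobase, PSMB3 at 200, PSMB6 at 148 and PSMB5 at 87.1. PSMB8 had 54.0, PSMB9 37.1 and PSMB10 12.1. PSMD2, a scaffold of the 19S base, had 148 and PSMD1, its partner, 50.7. PSMA6 (0.714), PSMA2 (2.23), PSMA1 (5.29), PSMC1 (6.22), PSMG4 (1.72) and PSMD9 (0.416) were low beside the partners they assemble with. All of these share exon bases with other genes in GENCODE 29, from 14.1% for PSMA6 to 75.8% for PSMC1, which overlaps NRDE2. How the counting treated such bases is not given in the sources used here, so levels of these 6 genes are uncertain. Sharing was not particular to them, since 23 of the 46 tested members share exon bases. Among these, PSMD7 shares 30.7% and stood at 86.15 CPM per kilobase, and PSMD6 shares 7.8% and stood at 7.07. The part of sharing in these levels was not tested.

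Glucose deprivation in control medium asks how the proteasome genes respond to loss of glucose alone. Of the alpha ring 6 of 7 members fell, of the structural beta subunits 4 of 4, of the ATPases 5 of 6, of the 19S base 2 of 3 and of the lid 7 of 8. Of the catalytic subunits and their replacements PSMB6 and PSMB9 fell, and none of the PSM-named assembly chaperones or activators did. Of 46 members 26 fell, 3 rose and 17 did not pass. Of all 18159 genes tested 60.6% changed, 29.6% lower and 31% higher. The median change was -0.39 over the members and 0.02 over all genes. Summed over all members, RNA went from 8648, 8719 and 8682 CPM to 6565, 6386 and 6432, and the groups did not overlap.

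Without the 2 libraries that stand apart, neither of which is in this comparison, 36 members fell and 4 rose, beside 72.4% of genes changed, 36.3% lower and 36.1% higher. Scaling by total counts lowered the median of all genes to -0.13 and left 34 members that fell and 1 that rose. In the control arm 36 members had all 3 deprived libraries below all 3 high-glucose ones, and 7 had them above. For all genes these shares were 36.4% and 39.5% (36.2% and 39.1% in the fit that drops the 2 libraries).

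**Figure D1:**
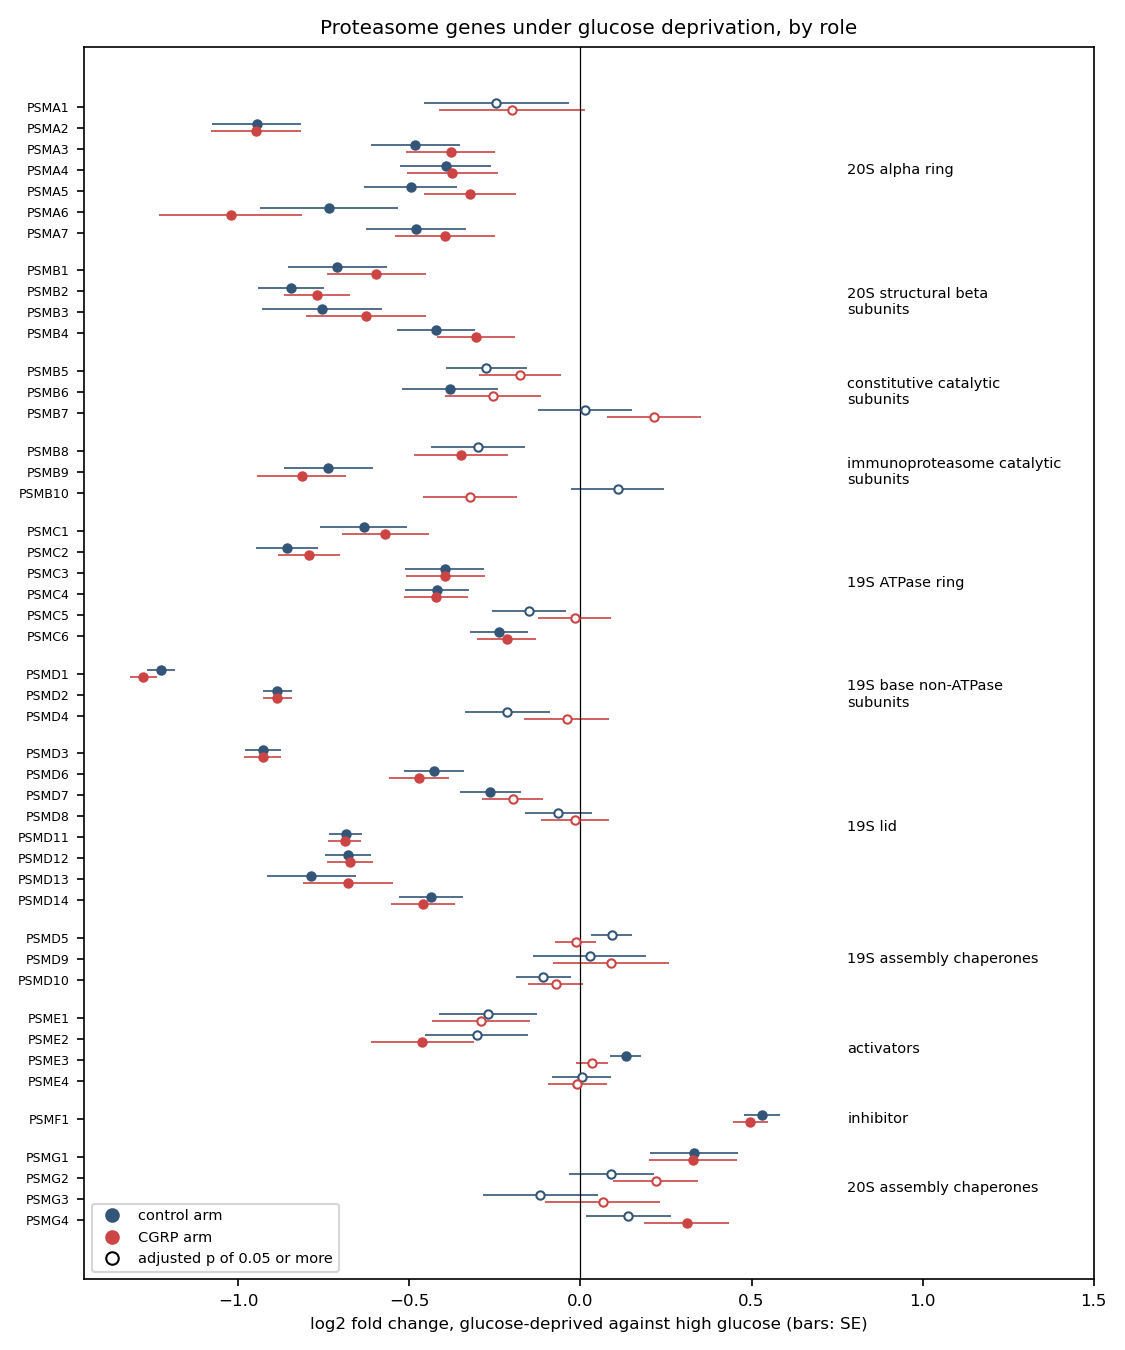
Log2 fold change of each tested proteasome gene in glucose-deprived against high-glucose medium (x axis, bars are SE), grouped by role, in the control arm (blue) and the CGRP arm (red). Filled points passed an adjusted p under 0.05. The alpha ring, structural beta subunits, ATPases, base and lid lie left of 0, with PSMD1 farthest at -1.23 and -1.28, and PSMF1 lies right of it at 0.53 and 0.50.

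PSMD1 (ENSG00000173692), the large base subunit that helps hold the cap together, changed most. Its level was 260.9, 269.6 and 258.5 CPM in high glucose and 115.4, 111.5 and 110.5 after deprivation. The groups stood far apart, with a change of -1.23 ± 0.04 and an adjusted p of 2.6e-13. PSMD2 (ENSG00000175166), the other large base subunit, went from 805.5, 818.3 and 793.6 to 448.9, 422 and 436.7 CPM, a change of -0.89 ± 0.04 (adjusted p = 2.5e-11). PSMD4, which binds ubiquitin chains, gave -0.21 ± 0.12 and did not pass (adjusted p = 0.15). So 2 of the 3 base subunits outside the ATPase ring fell.

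Of the 8 lid subunits 7 fell. PSMD3 (ENSG00000108344), a lid subunit that holds the other subunits together, went from 258.7, 257.7 and 255.4 to 133.4, 139.7 and 132.7 CPM, -0.93 ± 0.05 with an adjusted p of 2.5e-10. PSMD11 changed by -0.69 ± 0.05 and PSMD12 by -0.68 ± 0.07, with adjusted p of 3.5e-09 and 1.9e-07. PSMD14, the enzyme that removes ubiquitin from substrates as they enter, went from a range of 198.9 to 201.8 CPM to 145.8 to 150.6, and its groups did not overlap. PSMD8 gave -0.06 ± 0.10 and did not pass. Among the ATPases, which thread substrates into the core, 5 of 6 fell. PSMC2 (ENSG00000161057) went from 212.6, 216.8 and 211.1 to 117.3, 119 and 117.4 CPM, -0.86 ± 0.09 with an adjusted p of 5e-07, and PSMC5 gave -0.15 ± 0.11 and did not pass.

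In the core, 6 of 7 alpha subunits and 4 of 4 structural beta subunits fell, with medians of -0.48 and -0.73. PSMB2 (ENSG00000126067), a beta subunit without proteolytic activity, went from 333.4, 352.8 and 344 to 193.7, 186.7 and 192.5 CPM, -0.85 ± 0.10 with an adjusted p of 1.1e-06. Of the catalytic subunits only PSMB6 passed, at -0.38 ± 0.14 (adjusted p = 0.027), with 164.6, 165.7 and 163.1 CPM below 215.5, 214.7 and 212.5. It did not pass without a low-count filter (adjusted p = 0.052), nor when any 1 of the high-glucose controls, or deprived control 1 or 3, was left out (0.052 to 0.06). PSMB5 gave -0.28 ± 0.12 (adjusted p = 0.055) and passed without the 2 libraries, at -0.30, and with RLE scaling, at -0.31. PSMB7 stood at 446.6, 431.9 and 450.5 CPM in high glucose and at 449.1, 431.1 and 460.4 after deprivation. These values overlapped, and the change of 0.01 ± 0.14 turned negative under both other scalings and both other filters (-0.14 with total counts).

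None of the 3 chaperones of the 19S cap passed: PSMD5 gave 0.09, PSMD9 0.03 and PSMD10 -0.11. PSMF1 (ENSG00000125818), the inhibitor, rose from 91.57, 90.57 and 93.12 to 131.9, 136.7 and 128.9 CPM, 0.53 ± 0.05 with an adjusted p of 1.8e-07. It was the member that rose furthest. PSMG1, one of a chaperone pair for the alpha ring, rose by 0.33 ± 0.13 (adjusted p = 0.034), and PSME3, an activator of nuclear proteasomes, by 0.13 ± 0.05 (adjusted p = 0.021). Neither passed with the size factors of DESeq2 (RLE) in place of TMM, and PSME3 turned to -0.02 with total-count scaling. PSME1, PSME2 and PSME4 gave -0.27, -0.30 and 0.00 and did not pass. PSME1 and PSME2 passed as falls with total counts, without the 2 libraries and in a fit of only those groups. PSME2 also did with a replicate block.

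The same contrast in the CGRP arm uses 6 other libraries and so repeats the comparison. There too 26 members fell and 3 rose, where 60.4% of all genes changed, 28.5% lower and 31.9% higher, and the median was -0.34 beside 0.04 over all genes. Of the 26 that fell in each arm, 24 were the same genes, and PSMF1 and PSMG1 rose in both. Across the 46 members the changes of both arms had a Pearson r of 0.954 (members are not independent of each other), and 42 had the same sign. The same figures for all genes are not given here, so this agreement cannot be read as particular to proteasome genes. PSMD1 went from 253.8, 258.9 and 260.7 CPM to 105.2, 107.5 and 106.4, a change of -1.28 ± 0.04. PSMD2 changed by -0.89 and PSMD3 by -0.93.

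The library that stands apart sits inside this contrast. PSMC2 was at 117.3, 153.6 and 113.7 CPM in the deprived CGRP libraries, with the high value in the second, against 214.5 to 227.6 in high glucose. Without the 2 libraries 37 members fell and 1 rose, beside 34.9% of genes lower and 35% higher, and the median went to -0.59. The member that rose was PSMF1. PSMG1 gave 0.09 there, and PSMG4, which had passed at 0.31 ± 0.13 (adjusted p = 0.042), gave 0.11. The number of members whose groups did not overlap went from 18 lower and 3 higher to 37 and 6, where all genes gave 29.6% and 31.5% with these libraries and 38% and 41.2% without them.

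**Figure D2:**
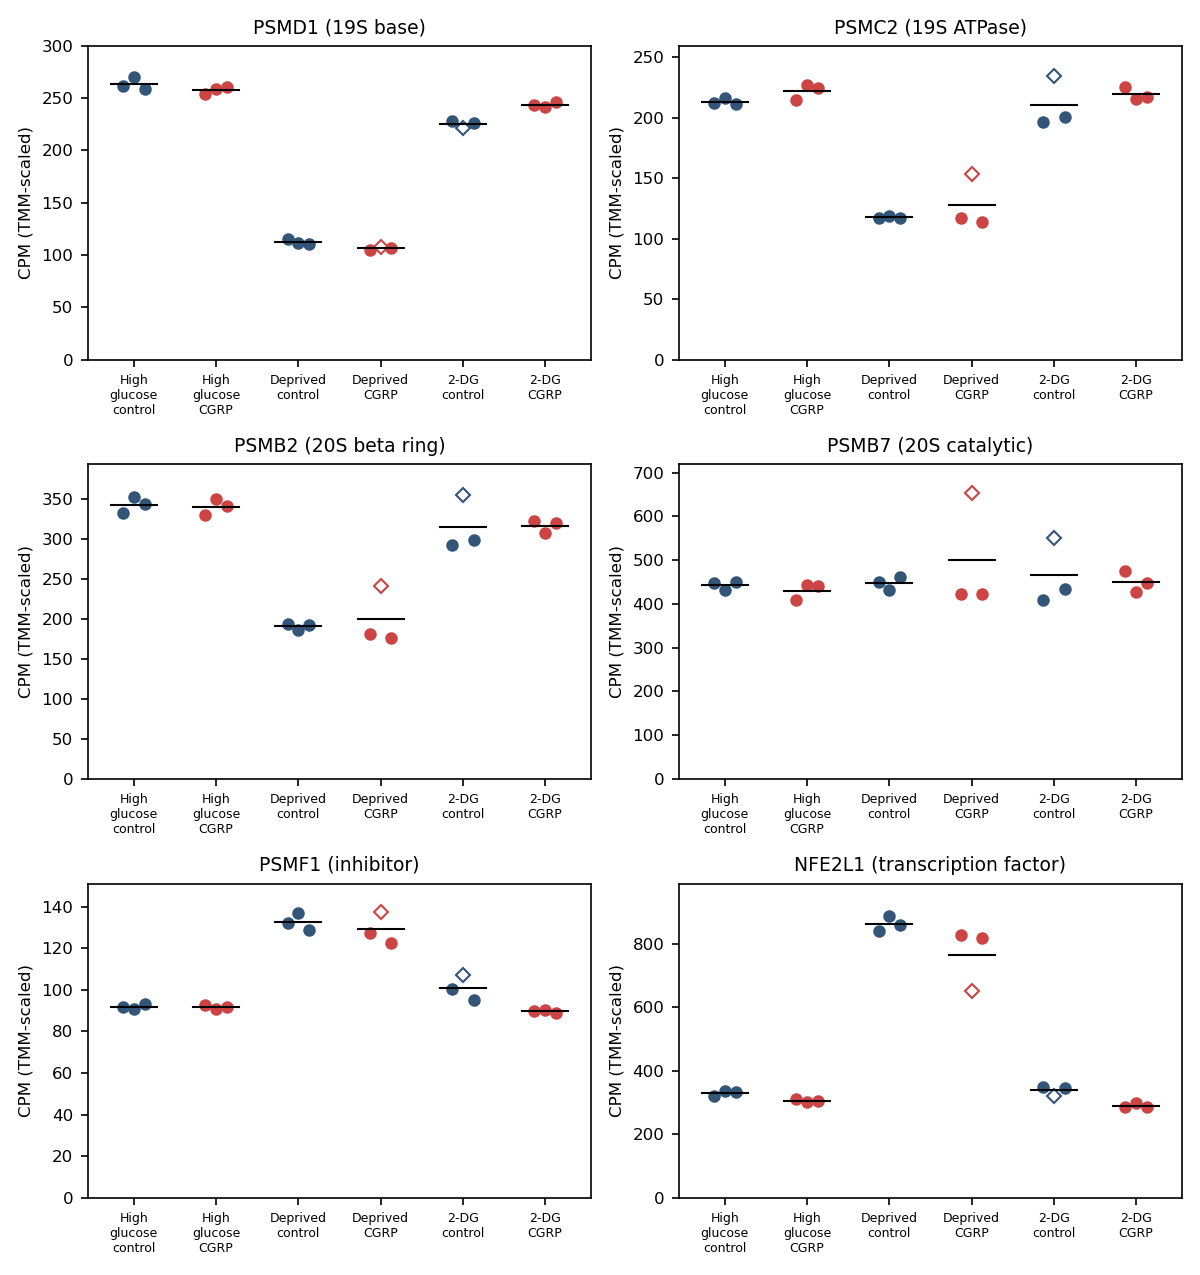
Level of 5 proteasome genes and of NFE2L1 in each library (TMM-scaled CPM, y axis from 0), for the 6 groups (x axis, blue control and red CGRP). Bars are means of 3 libraries and open diamonds are the 2 libraries that stand apart. PSMD1, PSMC2 and PSMB2 are low in both deprived groups, PSMF1 and NFE2L1 are high there, and PSMB7 is near 430 to 460 CPM in the high-glucose and deprived controls alike.

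Other genes of the pathway were taken from lists, whose counts stand against 60.6% of all genes changed in control medium and 60.4% under CGRP. Of 8 proteasome genes without a PSM symbol, 6 fell and 2 rose in control medium, and 5 fell and 2 rose under CGRP. In the fit without the 2 libraries 6 fell and 2 rose in either arm, beside 72.4% and 69.9% of all genes changed. POMP, the chaperone that completes the core, went from 195.7, 196.7 and 204.8 to 117.7, 115.1 and 111.4 CPM (-0.80 ± 0.17). SEM1, a small lid subunit, changed by -0.75 ± 0.19 and ADRM1, a ubiquitin receptor of the cap, by -0.58 ± 0.10. PAAF1, which binds the ATPases during assembly, rose by 0.69 ± 0.08, and ECPAS, which binds assembled proteasomes, by 0.74 ± 0.08.

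Of 8 genes that control proteasome transcription 3 rose and 2 fell in control medium, near the 31% and 29.6% of all genes, and 4 rose and 3 fell under CGRP (31.9% and 28.5%). In the fit without the 2 libraries these were 3 and 3, and 4 and 3. Of all genes 36.1% were higher and 36.3% lower there in control medium, and 35% and 34.9% under CGRP. NFE2L1 was at 320.7, 337.1 and 333.8 CPM in high glucose and at 838.8, 885.7 and 858.2 after deprivation, 1.38 ± 0.075 with an adjusted p of 1.3e-10. It was high in every deprived library, with 649.8 CPM as the lowest, in the library that stands apart. NFE2L3, a related factor, fell by 1.53 ± 0.06 on the log2 scale, and NFE2L2 rose by 0.32 ± 0.05. NGLY1, the glycanase that acts on NFE2L1 protein as it leaves the ER, rose by 0.47 ± 0.07, and DDI2, the protease that cleaves it, gave -0.20 ± 0.17 and did not pass in control medium. RNA of a factor does not show its processing, and NFE2L1 protein was not measured.

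Of 16 genes of ubiquitin and substrate delivery 8 fell and 2 rose in control medium, and 7 fell and 3 rose under CGRP. In total these are near the whole table, where 60.6% and 60.4% of genes changed, but more of them fell and fewer rose. Of all genes 29.6% were lower and 31% higher in control medium, and 28.5% and 31.9% under CGRP. In the fit without the 2 libraries 11 fell and 4 rose, and 10 fell and 3 rose, beside 72.4% and 69.9% of genes changed. VCP, the segregase that extracts ubiquitinated proteins, went from 632 to 640.6 CPM at the extremes down to 372 to 374.1, -0.77 ± 0.04 with an adjusted p of 2.3e-10. ZFAND2A (AIRAP), a proteasome-binding stress protein, rose from 22.6, 24.61 and 25.31 to 94.07, 89.14 and 94.52 CPM (1.94 ± 0.12). UBB, a polyubiquitin gene, changed by -0.44 ± 0.14 and UBA1, the main ubiquitin-activating enzyme, by -0.40 ± 0.05.

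Markers of cell identity moved with deprivation as well. Of 8 squamous markers 4 fell and 2 rose in control medium, where 60.6% of all genes changed. In the fit without the 2 libraries 4 fell and 3 rose, where 72.4% did. KRT17 rose from a mean of 693.7 to 1136 CPM and CDH1 from 411.7 to 629.8. KRT5, which fell, was at 645 to 710 CPM in the deprived libraries and at 2075 to 2397 in the rest. Genes listed as markers of other cell types were low beside the squamous ones, and their sums by cell type were lower with deprivation too. Not every gene was lower. PTPRC, DCN, PECAM1 and KDR were at or near 0 in high-glucose and deprived libraries alike. Under CGRP the mean of COL3A1 was 0.0090 CPM per kilobase in high glucose and 0.030 in deprived medium. Leukocyte markers summed to 0.03 to 0.50 CPM in deprived libraries and to 1.85 to 4.71 elsewhere, with CD14 the main part. Fibroblast markers summed to 10.6 to 16.5 against 18.1 to 28.7, and endothelial markers, mostly CDH5, to 1.79 to 3.87 against 21.3 to 43.9. PTPRC was at 0 in all deprived libraries. The part of these markers in the fall of the proteasome genes was not tested.

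Promoter sequences from RefSeq (GRCh38.p14) were found for 42 of the 48 members and searched on both strands, in the 250 bases before the start, for 8 short motifs. The antioxidant-type core that NFE2L1 binds, TGACNNNGC, was in 13 of 42 members (31.0%) and in 13.2% of 27305 genes. It was in 5 of 23 members that fell with deprivation in control medium, in 7 of 14 that did not pass and in 1 of 3 that rose. The following windows belong to members that fell and hold this core, in capitals, with up to 25 bases on either side, 5′ to 3′ on the gene's strand. They lie at chr17:39980745-39980803 (PSMD3, plus strand), chr17:38752612-38752670 (PSMB3, plus strand) and chr17:67366709-67366767 (PSMD12, minus strand).
PSMD3: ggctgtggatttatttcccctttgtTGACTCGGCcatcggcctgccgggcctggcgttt
PSMB3: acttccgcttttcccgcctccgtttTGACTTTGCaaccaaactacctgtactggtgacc
PSMD12: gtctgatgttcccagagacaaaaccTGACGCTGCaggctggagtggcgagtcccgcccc
The core begins 37, 104 and 165 bases before the annotated starts. The other motifs were CCAAT (45.2% of members, 37.0% of genes), the ETS-type CCGGAAG (26.2% and 10.2%), the GC box GGGCGG (61.9% and 46.2%), the element of nuclear respiratory factor (9.5% and 6.2%), TGACGTCA (0.0% and 2.0%), TGACTCAGC (0.0% and 0.6%) and the interferon-type element, GAAA repeated after 2 bases (11.9% and 3.7%). A TGACTCAGC match would also match TGACNNNGC. A gene with several annotated starts counted where any of its windows matched, and the 27305 genes were not limited to protein-coding ones. The shares of members and of all genes are therefore not a strictly like comparison. Matches are letters in a window and show no binding.

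The constitutive and immunoproteasome catalytic subunits were set side by side, since both sets fill the same sites of the core. PSMB9 fell with deprivation, PSMB8 did so in some settings, and PSMB10 did not pass in control medium. PSMB9 (ENSG00000240065) was at 115.3, 113.2 and 113.6 CPM in high glucose and at 66.93, 66.04 and 72.22 after deprivation. The groups stood apart, with a change of -0.74 ± 0.13 (adjusted p = 0.00012), and in the CGRP arm it was -0.81 ± 0.13. PSMB8 (ENSG00000204264) was at 160.3, 162.2 and 163.2 CPM and then at 131.5, 132.2 and 131.4. All deprived values were lower, and the change of -0.30 ± 0.14 did not pass in control medium (adjusted p = 0.072), while -0.35 ± 0.14 in the CGRP arm did (adjusted p = 0.038). In control medium PSMB8 passed with RLE (-0.33), total counts (-0.45), the stricter filter (-0.35), a replicate block (-0.30), without the 2 libraries (-0.33) and in a fit of only those groups (-0.33). In the CGRP arm it did not pass without a low-count filter or in a fit of only the groups compared. Nor did it when any 1 high-glucose CGRP library, or deprived CGRP library 1 or 3, was left out.

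PSMB10 (ENSG00000205220) was the lowest of the 3, at 21, 22.74 and 23.49 CPM in high glucose and 23.65, 24.51 and 24.35 after deprivation in control medium. In the CGRP arm it went from 27.01, 24.19 and 25.33 to 19.04, 24.9 and 17.36. Its changes were 0.11 ± 0.14 and -0.32 ± 0.14 (adjusted p = 0.51 and 0.052), and the first turned to -0.05 with total-count scaling. Without the 2 libraries PSMB8, PSMB9 and PSMB10 changed by -0.62, -1.05 and -0.51 in the CGRP arm, and all 3 fell. PSMB8 shares 20.6% of its exon bases with PSMB8-AS1 and PSMB9, and PSMB10 34.8% with another gene model, so reads may be shared there.

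The ratio of each immunoproteasome subunit to its constitutive counterpart was compared within a library, where scaling between libraries cancels. The exact permutation test was two-sided and shuffled libraries within each arm or medium, and the 9 p-values were adjusted together. PSMB9 had 0.527 to 0.535 counts per count of PSMB6 in the high-glucose control and 0.399 to 0.443 in the deprived control. Under CGRP it had 0.533 to 0.559 and then 0.361 to 0.394. No deprived library overlapped a high-glucose one. The mean log2 difference was -0.45, -0.36 in the control arm and -0.55 in the CGRP arm, with an exact permutation p of 0.005, the smallest this design allows, and an adjusted p of 0.045. This was the sole ratio to pass, and sign flips of same-numbered libraries gave an exact p of 0.031, the smallest that 6 pairs allow (adjusted p = 0.211).

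PSMB8 and PSMB5 stayed nearly level, with a log2 difference of -0.10 for deprivation (exact permutation p = 0.02, adjusted 0.056) and of -0.11 for 2-DG (adjusted p = 0.056). Nearly all of these came from the CGRP arm, with -0.18 and -0.20, against -0.02 and -0.02 in the control arm. PSMB10 over PSMB7 gave -0.21 for deprivation (exact permutation p = 0.115, adjusted 0.17), which joined 0.10 in the control arm and -0.52 in the CGRP arm. For 2-DG, PSMB9 over PSMB6 was 0.10 higher (adjusted p = 0.056) and PSMB10 over PSMB7 -0.02. CGRP against control, averaged over media, gave 0.00 for PSMB8 over PSMB5, -0.07 for PSMB9 over PSMB6 (adjusted p = 0.060) and -0.11 for PSMB10 over PSMB7, and none passed. Within media the CGRP differences were 0.11, 0.04 and 0.23 in high glucose and -0.05, -0.15 and -0.39 in deprived medium, in the same order of ratios. In 2-DG medium they were -0.07, -0.10 and -0.16.

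**Figure D3:**
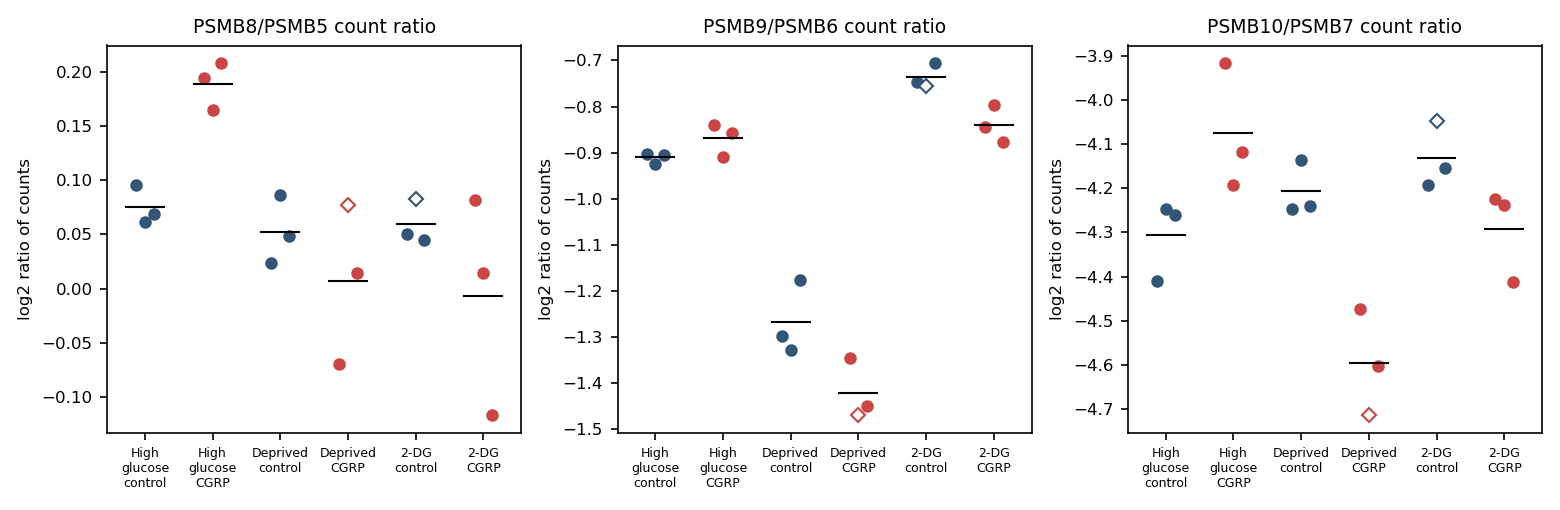
Log2 ratio of counts of each immunoproteasome subunit to its constitutive counterpart (y axis) in each library of the 6 groups (x axis, blue control and red CGRP). Bars are means of 3 libraries, open diamonds the 2 libraries that stand apart, and the y axes do not start at 0. PSMB9 over PSMB6 is at -1.175 or lower in all 6 deprived libraries and at -0.9239 or higher in all others.

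2-DG in high glucose asks whether blocking glycolysis does what removing glucose does. The proteasome genes moved little. In control medium 3 members fell and none rose, where 5.85% of all genes were lower and 7.99% higher, and the median was -0.01. The 3 were PSMD1 at -0.23 ± 0.04 (adjusted p = 0.001), PSMD2 at -0.24 ± 0.04 (0.0011) and PSMD3 at -0.21 ± 0.05 (0.014). PSMD1 was at 228.1, 221.3 and 225.6 CPM, below all high-glucose controls and far above the deprived libraries. The 3 lid and base genes that fell are among those with the largest falls under deprivation, and both comparisons share the high-glucose control.

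Once the 2 libraries were dropped, 27 members fell and 2 rose with 2-DG in control medium, beside 14.3% of genes lower and 18.1% higher, with a median of -0.14. The largest were PSMB6 at -0.32 and PSMB3 at -0.29. The second 2-DG control library had PSMB6 at 234.7 CPM, the others 169.7 and 174.3, and the high-glucose controls 212.5 to 215.5. The high value lay above all high-glucose controls and the other two lay below them. In the CGRP arm 0 members passed in edgeR, 1 had an unadjusted p under 0.05, DESeq2 called 1, and 2.39% of all genes changed (1.52% higher, 0.87% lower). In the fit without the 2 libraries, which are not in this contrast, 15 fell and 2 rose, beside 9.01% and 10.5% of genes.

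Set directly against deprivation in control medium, 2-DG left 28 members higher and 1 lower (PSMF1, -0.39), where 57.5% of genes changed, 28.9% higher and 28.6% lower. The groups did not overlap for 30 members that were higher and 2 that were lower, beside 31.9% and 33.3% of all genes. PSMD1 was higher by 1.00 and PSMC2 by 0.84. In the fit without the 2 libraries 31 were higher and 3 lower, where 34% of genes were higher and 32.8% lower. NFE2L1 was at 348.9, 319.1 and 345.3 CPM with 2-DG, and its change of 0.03 ± 0.074 from high glucose did not pass.

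**Figure D4:**
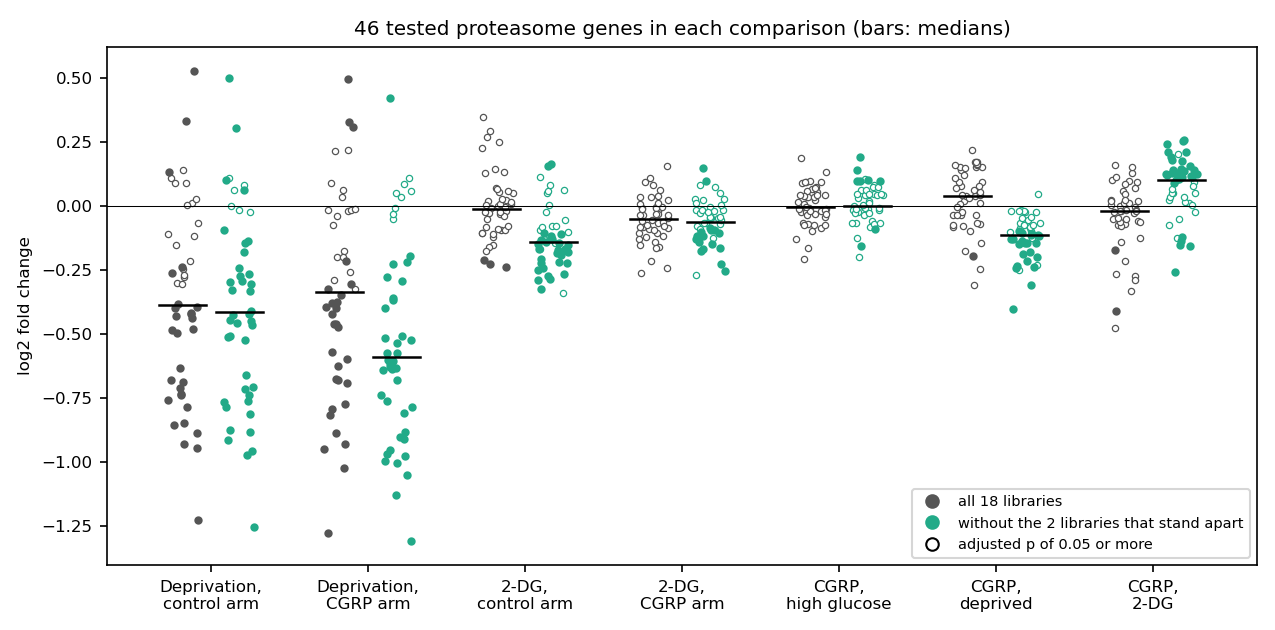
Log2 fold change of the 46 tested proteasome genes (y axis) in 7 comparisons (x axis), with all 18 libraries (grey) and without the 2 that stand apart (green). Filled points passed an adjusted p under 0.05 and bars are medians. Deprivation medians are -0.39 and -0.34, the others are within 0.05 of 0 with all libraries, and without the 2 libraries CGRP moves to -0.11 in deprived medium and 0.10 in 2-DG medium.

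CGRP in high glucose tests the peptide in ordinary medium. No proteasome gene passed in edgeR, 0 had an unadjusted p under 0.05, DESeq2 called 0, and 4.33% of all genes changed (2.04% higher, 2.29% lower). In all, 7 members had every CGRP library above every control and 8 had every one below, near the 15.5% and 18.5% of all genes. PSMB8, PSMB9 and PSMB10 were among the 7. PSMB9 went from 115.3, 113.2 and 113.6 to 120.6, 127 and 127.8 CPM (0.13 ± 0.13, adjusted p = 0.76), and PSMB8 from 160.3, 162.2 and 163.2 to 165.4, 177.3 and 176.

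The error in that test is shared with the 2 libraries that stand apart. Without them 6 members rose with CGRP in high glucose. They were PSMB9 (0.14), PSMB10 (0.19), PSMB8 (0.10), PSME1 (0.10), PSME2 (0.10) and PSMB6 (0.10), beside 9.14% of genes higher and 9.92% lower. PSME4 (-0.16) and PSME3 (-0.09) fell. In a fit of the high-glucose groups alone 6 rose and 2 fell, where 21.4% of all genes changed. These changes are 0.19 or less on the log2 scale.

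In deprived medium 1 member fell with CGRP, PSME3, where 6.58% of genes were lower and 6.38% higher. PSME3 went from 158, 147.5 and 151.9 to 136.7, 125.5 and 137.8 CPM (-0.19 ± 0.05, adjusted p = 0.012), and its groups did not overlap. It did not pass without the first deprived control library, with total-count scaling, without a low-count filter or in a fit of those groups only. Without the second deprived CGRP library alone 4 members fell, where 14.7% of all genes changed. When both were dropped 22 fell and none rose, beside 16.6% of genes lower and 12.1% higher. Among these PSMB10 gave -0.40, PSME2 -0.31, PSMD14 -0.24 and PSMC4 -0.21. PSME2 was at 165.7, 160.9 and 163.4 CPM in the deprived control and at 131.8, 206.2 and 130.9 with CGRP, so the groups overlap through the second CGRP library.

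In 2-DG medium 2 members fell with CGRP and none rose, where 6.89% of genes were lower and 5.31% higher. They were PSMG4 (-0.41 ± 0.12, adjusted p = 0.041) and PSMF1 (-0.17 ± 0.05, adjusted p = 0.043), and neither passed with RLE factors. The split differed between settings: 2 rose and 0 fell with RLE, 3 rose and 0 fell with a stricter filter, 2 rose and 1 fell with total counts, and 3 rose and 2 fell in DESeq2, and none passed in a fit of those groups only. When the 2 libraries were dropped 24 rose and 5 fell, beside 12.3% and 16.1% of genes, and without the second 2-DG control alone 0 passed. PSMB6 (0.25) and PSMA4 (0.24) were among those that rose. In this group the leukocyte genes PTPRC (0.52 to 0.82 CPM) and CD3E (0.14 to 0.33) were above their level in all other libraries, at most 0.03 and 0.06, and their part in the result was not tested.

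**Figure D5:**
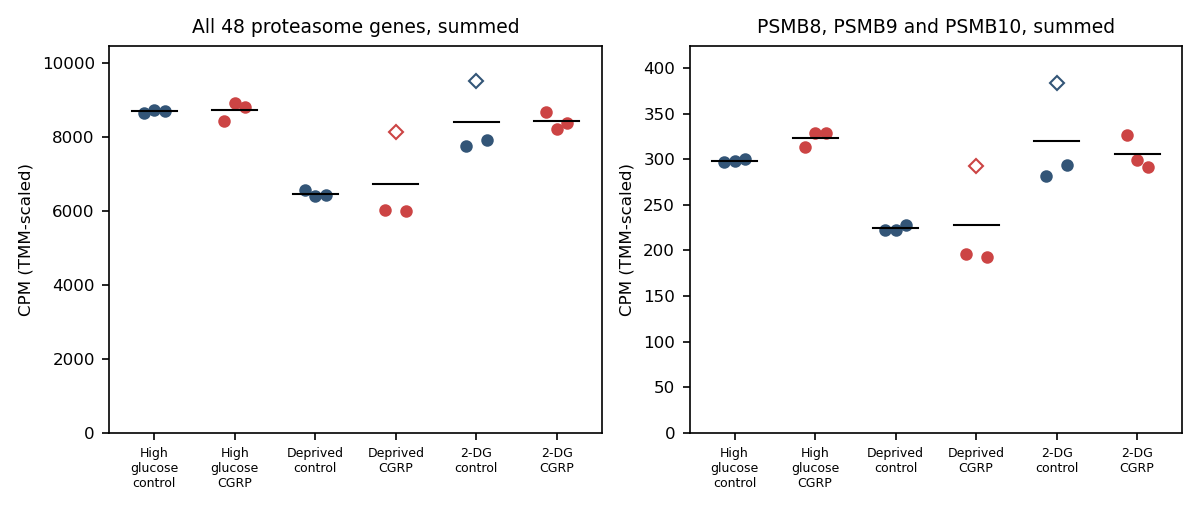
Summed level of all 48 proteasome genes (left) and of PSMB8, PSMB9 and PSMB10 (right) in each library (TMM-scaled CPM, y axes from 0) of the 6 groups (x axis). Bars are means of 3 libraries and open diamonds are the 2 libraries that stand apart. In the deprived CGRP group the open diamond is at 8140 CPM on the left, where the other two are at 6028 and 5991.

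Whether CGRP acted differently with and without glucose was tested as an interaction. In edgeR 0 members passed for deprivation, 1 had an unadjusted p under 0.05, DESeq2 called 0, and 1.55% of all genes passed (0.903% higher, 0.65% lower). For 2-DG 0 passed, 3 had an unadjusted p under 0.05, DESeq2 called 2, and 0.391% of all genes passed (0.121% higher, 0.27% lower). In the fit that drops the 2 libraries, 13 members were lower in the deprivation interaction, where 7.67% of genes were, and none was higher. PSME2 (-0.41 ± 0.05), PSMB10 (-0.60 ± 0.09), PSME1 (-0.28 ± 0.04), PSMB8 (-0.29 ± 0.05) and PSMB9 (-0.29 ± 0.06) had the smallest adjusted p among them. In that fit the 3 immunoproteasome subunits and both PA28 genes rose with CGRP in high glucose and fell with it in deprived medium. The deprived CGRP library left out there held these genes above its group mates, by log2 0.45 to 0.67. Leaving it out lowers their deprived CGRP values by construction, so this direction is no independent evidence. With only the second deprived CGRP library left out, 0 members passed the deprivation interaction (3.1% of all genes). In a fit of only the groups compared 0 passed as well (0.9%). For 2-DG 9 members were higher without both libraries, where 2.32% of genes were, and 0 passed without the second 2-DG control alone (0.3%).

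PSME2 and PSMB10 hold the interferon-type element (in capitals) close to their starts, 28 and 21 bases before, at chr14:24146611-24146663 and chr16:67936851-67936896, both on the minus strand of GRCh38.p14. Their windows are shown since these genes are among those named for the deprivation interaction in the fit without the 2 libraries. Of the others named there, PSMB9 and PSME1 were searched and lack the motif. None was found for PSMB8, which may be among the members without a promoter sequence.
PSME2: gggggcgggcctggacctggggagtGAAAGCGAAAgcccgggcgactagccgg
PSMB10: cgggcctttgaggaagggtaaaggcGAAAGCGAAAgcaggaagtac
PSMA4, PSMB4 and PSMG4 also hold the motif.

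Of 13 genes of antigen processing and its regulators, 6 fell and 2 rose with deprivation in control medium, and as many did so in the CGRP arm, where 60.6% and 60.4% of all genes changed. In total these are near the whole table, though more fell than rose. Of all genes 29.6% were lower and 31% higher in control medium, and 28.5% and 31.9% under CGRP. In the fit without the 2 libraries 7 fell and 3 rose, and 9 fell and 2 rose, beside 72.4% and 69.9% of genes changed. IRF1, the factor that drives immunoproteasome genes after interferon, went from 184.2, 192.2 and 196.9 to 129.5, 133.9 and 132.4 CPM (-0.53 ± 0.05, adjusted p = 2.4e-07), and from 183.7 to 190.1 CPM at the extremes to 105.6 to 121.4 in the CGRP arm (-0.74 ± 0.05). TAPBP, which helps load peptides onto class I molecules, changed by -0.87 ± 0.05, and ERAP2, which trims them, by -1.18 ± 0.04, while ERAP1, the other trimming enzyme, rose by 0.75 ± 0.14. TAP1, a subunit of the peptide transporter, changed by -0.24 ± 0.04 in control medium and -0.51 ± 0.04 under CGRP.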

How the data were processed

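The deposited table holds raw counts per Ensembl gene ID and library, per the file headers. Alignment was with HISAT2 2.0.4, per the submitters' processing notes; both hg19 and GRCh38 appear there with no role. Counting program, annotation and strand setting were not given in the sources used here. No deposited column was left unused.

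Genes passed filterByExpr (at least 10 counts, 15 in total), which left 18159. Counts were tested with edgeR 4.0.16 (R 4.3.3; TMM, robust quasi-likelihood, 12 residual degrees of freedom, all 18 libraries, common biological coefficient of variation 9.44%), with Benjamini-Hochberg adjustment across every tested gene in each of 10 comparisons. DESeq2 1.42.0, other scalings, filters and left-out libraries were alternatives. The tests were also run on simulated data. These held few changed genes and no outlying library, so they cannot show how the tests behave with the 2 libraries that stand apart. Ratios used log2 counts plus 0.5. Exon lengths and overlaps came from GENCODE 29. No 2 libraries agreed within sampling noise.

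Named genes were PSMB5 to PSMB10, PSME1 and PSME2, the 6 rises and 6 falls with the smallest adjusted p in each comparison, and, of the related lists, NFE2L1, POMP, SEM1, TAP1, IRF1 and up to 3 others that passed. Other genes, and the promoter motifs, were chosen after their values were seen. Members and lists were chosen with earlier results of these data known. Some genes of the related lists are not reported here.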

Additional observations from a re-analysis of the deposited data

Results flagged for a closer look

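TAP1, a subunit of the transporter that carries proteasome products into the ER and a neighbour of PSMB9 and PSMB8, differed in its response to CGRP between high-glucose and deprived medium, as tested by an interaction term. It was at 158.8 to 167.3 CPM in the high-glucose control and at 167.7 to 177.5 with CGRP, and at 133.9 to 140.8 in the deprived control and 119.4 to 123.1 with CGRP. Neither pair of groups overlapped. TAP1 was the only gene of the members and related lists, cell markers aside, to pass an interaction with all libraries. Of all genes 1.55% passed this interaction, so a single pass among so many genes is not particular to the lists. The CGRP effect was 0.09 ± 0.04 (adjusted p = 0.39) in high glucose and -0.18 ± 0.04 (adjusted p = 0.014) in deprived medium, and the interaction was -0.2689 ± 0.0628 (SE, edgeR adjusted p = 0.042). In the second deprived CGRP library TAP1 was at 122.2 CPM, within the range of its group mates. Without the 2 libraries that stand apart the interaction was -0.27 (edgeR adjusted p = 3.7e-05), where 13.5% of all genes passed.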

How the results depend on the processing

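Library totals were within 28.04M to 32.66M. Under deprivation, leaving out 1 library gave 25 to 28 changed members in control medium (54.3% to 54.7% of all genes). Under CGRP it gave 20 to 38 (54.4% to 63.6%). A fit of only the groups compared gave 19 under CGRP, where 8588 of all 17186 genes tested changed. For 2-DG against deprivation the range with 1 library left out was 22 to 32 (50.9% to 54.4%). Leaving out both libraries that stand apart gave 29 changed members for 2-DG in control medium (32.5%) and 17 for 2-DG under CGRP (19.5%). With 1 library left out these were 2 to 3 (8.6% to 11.2%) and 0 (0.8% to 1.1%). Without both, CGRP gave 8 in high glucose (19.1%), 22 in deprived medium (28.7%) and 29 in 2-DG medium (28.4%). The deprivation and 2-DG interactions gave 13 (13.5%) and 9 (5.9%) without both, and 0 with any 1 library left out (at most 3.1% and 0.3%). A fit of only the groups compared gave 10 for 2-DG under CGRP (13.9% of all genes) and 8 for CGRP in high glucose (21.4%). It gave 0 for CGRP in deprived and in 2-DG medium (0.8% and 7.1%). DESeq2 gave 1 for 2-DG under CGRP (4.4%), 5 for CGRP in 2-DG medium (13.9%) and 2 for the 2-DG interaction (1.6%). Total counts gave 1 for 2-DG under CGRP (2.3%) and 0 for CGRP in deprived medium (12.2%). No filter gave 0 for CGRP in deprived medium (4.0%) and 1 for CGRP in 2-DG medium (4.3%). With 1 library left out, CGRP gave 0 to 4 in deprived (6.9% to 14.7%) and 0 to 2 in 2-DG medium (7.8% to 9.8%). The cause was not tested. PSMB7 turned to negative values for deprivation in control medium in 10 settings: -0.0184 (RLE), -0.144 (total counts), -0.0195 (no filter), -0.0407 (stricter filter), -0.015 (without the 2 libraries), -0.021 (only those groups), -0.016 (DESeq2), and, with 1 library left out, 3 of a range from -0.0377 to 0.0252 (-0.0058 without the second high-glucose control, -0.0161 and -0.0377 without deprived controls 1 and 3). Under CGRP it turned to -0.0511 without the 2 libraries and, with 1 library left out, ranged from -0.0509 (without the second deprived CGRP library) to 0.3038. With total counts PSMB10 turned to -0.0473 and PSME3 to -0.0247.

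Ratios ranged as follows with 1 library left out: PSMB8/PSMB5 -0.1195 to -0.08306 for deprivation, -0.1278 to -0.0784 for 2-DG and -0.01412 to 0.01884 for CGRP, PSMB9/PSMB6 -0.4773 to -0.4393, 0.09139 to 0.111 and -0.08465 to -0.0567, and PSMB10/PSMB7 -0.2415 to -0.1713, -0.05 to 0.01877 and -0.1326 to -0.08608. Without the 2 libraries PSMB8/PSMB5 was -0.1117 for 2-DG (adjusted p = 0.045) and -0.007064 for CGRP.

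Replicate numbers are shared between groups, and the labels do not say whether they pair cultures. Deviations of same-numbered libraries correlated at -0.154 to 0.174, which cannot show how the cultures were set up. The main tests treated libraries as unpaired. A replicate block gave 32 changed members (29 fell, 3 rose) for deprivation in either arm and left the other counts within 1 of their values. For deprivation 61.2% of all genes changed with the block in control medium and 60.8% under CGRP. With block sign flips the PSMB9/PSMB6 difference of -0.4544 had an exact p of 0.031, the smallest that 6 pairs allow, and an adjusted p of 0.211.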
